A study of Homo sapiens with 24 samples.

Results

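RWPE-1 and BPH-1 are immortalized human prostate epithelial cell lines, and both gave rise to metastases in mice once they overexpressed the kinase C-Raf. The libraries compared here precede any passage through an animal and ask what sets the lines apart at that point. They were chosen by their labels as all vector control and C-Raf parental libraries, 11 of the 24 RNA sequencing libraries of the series. RWPE-1 was represented by 1 vector control and 4 C-Raf parental libraries (5 in all), and BPH-1 by 3 vector control and 3 C-Raf parental libraries (6 in all). The other 13 libraries came from metastasis-derived lines and served only as libraries that the choice had not used. By their labels, the RWPE-1 ones came from lymph node, spine and bone, and the BPH-1 ones from bone and thymus. Site thus goes in part with line there. A BPH-1 library labelled bone and used below is titled thymus, and another labelled thymus is titled bone.

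All 11 libraries came from cells transduced with a lentivirus that carries luciferase and YFP reporters (vector control) or the same with C-Raf behind the ubiquitin promoter (C-Raf parental). The titles of the BPH-1 libraries also name a secreted luciferase reporter (sGluc) and those of the RWPE-1 libraries do not, although the study's text gives such a reporter to both lines. According to the labels, RWPE-1 grew in serum-free keratinocyte medium supplemented with EGF (5 ng/mL) and an extract of bovine pituitary (0.05 mg/mL), whereas BPH-1 grew in DMEM with 10% fetal bovine serum (the methods name RPMI for BPH-1). RWPE-1 was immortalized by a human papillomavirus and BPH-1 by SV40. Cell line, donor, immortalizing virus, medium and deposited table go together in these libraries, so their parts in a difference cannot be told apart. Each line is 1 model and not a sample of prostate donors.

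The glandular epithelium of the prostate consists of basal cells, which carry the transcription factor p63 (TP63) and the keratins KRT5 and KRT14, and of luminal cells, which carry KRT8 and KRT18, respond to androgen and secrete kallikreins such as PSA (KLK3). Rare neuroendocrine cells and club and hillock cells complete it, and stroma surrounds it. Keratins form the intermediate filaments of epithelia, whereas vimentin (VIM) forms those of mesenchymal cells and of many cultured cells.

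Total counts ran from 25997814 to 37635831 per library, and protein-coding genes held 97.41% to 98.24% of them. Expected counts of protein-coding genes were scaled by TMM and are given as counts relative to library size (CPM). Correlations of log2 CPM lay between 0.98 and 0.996 for pairs of BPH-1 libraries, between 0.951 and 0.995 for pairs of RWPE-1 libraries, and between 0.842 and 0.869 for pairs across the lines. The biological coefficient of variation was 2.43% among BPH-1 libraries and 24.4% among RWPE-1 libraries. RWPE-1 C-Raf parental libraries 3 and 4 stood apart from the other RWPE-1 libraries by their interferon-stimulated genes (summed to 7680 and 7570 CPM, against 485 to 788 CPM in the other 3), and values without this pair are given where it matters. The labels do not say that libraries of a group came from separate cultures, so p values measure only the spread between these libraries. The test assumed the same spread in both lines for each gene (19.4% over the 11 libraries), which lies between the 2 values above.

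The lines differed in most of what they expressed. Of 14352 protein-coding genes tested with edgeR's quasi-likelihood test, with terms for line and stage (vector control or C-Raf parental), 10843 (75.6%) passed an adjusted p of 0.05. Of these, 5469 (38.1% of all tested) were higher in RWPE-1 and 5374 (37.4%) were higher in BPH-1. A test against a 2-fold difference called 3428 genes (23.9%), 1585 (11%) higher in RWPE-1 and 1843 (12.8%) higher in BPH-1. For 8857 genes (61.7%) every library of one line lay above every library of the other. The median log2 difference (RWPE-1 minus BPH-1, here and throughout) over all genes tested was 0.00465, and the median of its absolute value was 0.695. These shares are the background against which each gene group below is read. In such bulk libraries, fewer expressing cells and less RNA per cell cannot be told apart.

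A property of the transcripts ran through this comparison. Genes were split into 5 equal parts by the GC content of their longest transcript. The median log2 difference was 0.50 in the part of lowest GC content (30.2% to 41.1%) and −0.51 in the part of highest GC content (58.6% to 76.0%). Each RWPE-1 library deviated from the mean of all 11 in this sense (Spearman's rho across genes from −0.389 to −0.277), and each BPH-1 library in the opposite sense (0.256 to 0.378). Deviations from a shared mean balance out, so the opposite signs of the lines are not independent of each other. The metastasis-derived libraries showed a weaker gradient, from 0.10 to −0.17. After a trend on GC content and transcript length was removed from each library, 10589 genes were called and 3081 beyond 2-fold. Values after this step, which was added after the data were seen, are given below where they matter.

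**Figure D1:**
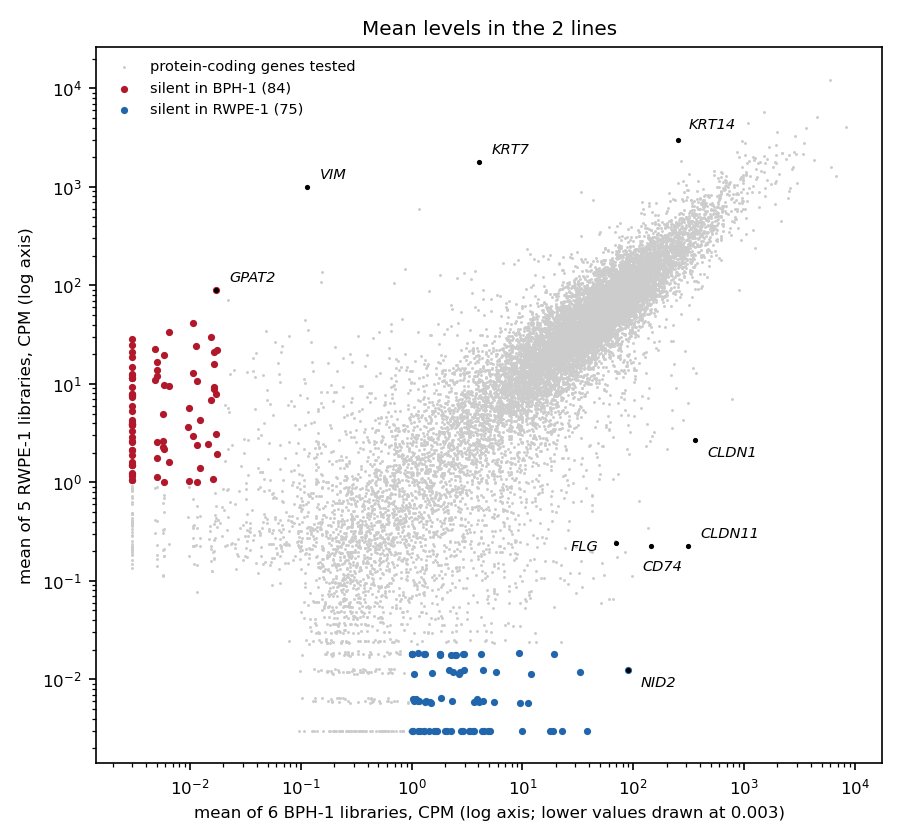
Mean level of each protein-coding gene tested outside chromosome Y in the 6 BPH-1 libraries (x axis) and the 5 RWPE-1 libraries (y axis), in CPM on log axes. Genes silent in 1 line and at least at 1 CPM in the other are colored (84 silent in BPH-1, 75 silent in RWPE-1), and VIM, KRT7, KRT14, CLDN1, CD74, CLDN11, FLG, NID2 and GPAT2 are named.

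Some genes were expressed in one line and silent in the other. A gene was called silent in a line if its counts summed over all libraries of that line were at most 3. Of 11973 genes with a mean of at least 1 CPM in RWPE-1, 84 (0.702%) were silent in BPH-1. Of 12237 genes with a mean of at least 1 CPM in BPH-1, 75 (0.613%) were silent in RWPE-1. Genes on chromosome Y are left out of both counts. Of the 84 genes silent in BPH-1, 41 had no count in any BPH-1 library, and of the 75 silent in RWPE-1, 28 had no count in any RWPE-1 library.

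These genes were then looked up in libraries that had not been used to find them, where the full pattern held for part of them. The limit there was 1 CPM, looser than the 3 summed counts that defined silence. In the metastasis-derived libraries used, protein-coding genes held 38.93%, 70.03% and 83.82% of the counts in the 3 deep BPH-1 libraries and 97.26% to 97.86% in the 7 RWPE-1 libraries. This share thus differed between the lines there, and its part in any result from these libraries given below was not tested. Of the 84 genes silent in BPH-1, 83 stayed below 1 CPM in each of the 3 deep BPH-1 metastasis-derived libraries, and 57 of them were also at 1 CPM or more in all 7 RWPE-1 metastasis-derived libraries. Of the 75 genes silent in RWPE-1, 74 stayed below 1 CPM in all 7 RWPE-1 metastasis-derived libraries. Of the 75, 24 were also at 1 CPM or more in each of the 3 BPH-1 ones.

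Vimentin and the genes of highest level among those silent in BPH-1 illustrate the RWPE-1 side (coordinates are those of the build named for the files, hg38). VIM (ENSG00000026025, chr10:17228259-17237593, plus strand) was at 307 CPM in vector control and 936, 1260, 1258 and 1207 CPM in C-Raf parental libraries 1 to 4, against 0 to 0.233 CPM (median 0.107) in BPH-1. Every RWPE-1 library was far above every BPH-1 library, with a log2 difference of 12.57 ± 0.29 (SE, as after every ± of a log2 difference) and an adjusted p = 1.28e-10. RWPE-1 values of other genes follow in the same order, vector control first and then C-Raf parental 1 to 4, and BPH-1 values are given as lowest, highest and median. GPAT2, a glycerol-3-phosphate acyltransferase (ENSG00000186281, chr2:96021946-96039451, minus strand), was at 98.8, 105, 88.1, 76.8 and 76.6 CPM in RWPE-1. It had 3 counts in the 6 BPH-1 libraries together, a ratio of 5313 (95% exact interval 1818 to 25770) for counting error only. The ephrin receptor EPHA7 was at 60.7, 22.8, 42.4, 40.2 and 43.2 CPM in RWPE-1, with 2 counts in BPH-1, and the sperm membrane gene SPESP1 was at 28.5, 28.5, 23.3, 21.7 and 23.3 CPM in RWPE-1, with no count in BPH-1. The level of SPESP1 was at least 1494-fold higher than a floor of 3 counts over the 6 BPH-1 libraries (0.0167 CPM). Its locus overlaps ANP32A on the opposite strand and NOX5 on the same strand. RSPO4, a secreted potentiator of Wnt signalling, and AJAP1, a junction-associated membrane protein, completed the group with means of 30.0 ± 8.35 CPM and 24.2 ± 5.96 CPM (SD, n = 5) in RWPE-1 and 3 and 2 counts in BPH-1.

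Zinc finger genes made up a large part of this side. KRAB zinc finger genes encode DNA-binding repressors, most of them clustered on chromosome 19. Among the 84 genes silent in BPH-1, 31 lay on chromosome 19 and 30 of these carried a ZNF symbol with a number. Of 208 such ZNF genes on chromosome 19 with at least 1 CPM in RWPE-1, 30 (14.4%) were silent in BPH-1, against 0.702% of all genes. Of 157 ZNF genes on chromosome 19 with at least 1 CPM in BPH-1, 0 were silent in RWPE-1. Of 226 ZNF genes on other chromosomes, 4 (1.77%) were silent in BPH-1. This group was picked out after its values had been seen and was therefore not tested as a group. Along chromosome 19, the silent ones numbered 10 of 21 between 20 and 25 Mb, 15 of 88 between 50 and 60 Mb, 4 of 45 below 20 Mb and 1 of 54 between 25 and 50 Mb.

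The ZNF genes named by the rule for largest differences were ZNF160, ZNF468, ZNF347, ZNF415, ZNF43 and ZNF354C, and ZNF320 was among the silent genes of highest level. ZNF160 (ENSG00000170949, chr19:53066606-53103436, minus strand) was at 21.9, 22.9, 27.1, 36 and 35.8 CPM in RWPE-1 and had no count in BPH-1, at least 1729-fold above the floor. ZNF468 was at 18.8, 19.8, 20.4, 24 and 23.6 CPM in RWPE-1, and ZNF347 was at 15.1, 18.3, 19.8, 20.1 and 20.1 CPM in RWPE-1, both again without a count in the 6 BPH-1 libraries. No RWPE-1 library was near 0 for these genes. ZNF468 shares its span with ZNF320 and ZNF347 with ZNF415 on the same strand, and reads of near-identical zinc finger genes are split by estimation, so single members are less certain than the group. Over all 230 ZNF genes tested on chromosome 19, 80 were called beyond 2-fold higher in RWPE-1 and 6 higher in BPH-1, and 121 and 48 were called at any size. The median log2 difference was 0.40, and 0.28 after the GC and length trend was removed. The other genes on chromosome 19 went the opposite way, with 111 called higher in RWPE-1 and 454 called higher in BPH-1 (median −0.38), but this median was 0.02 after the trend was removed.

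On the BPH-1 side, GALNT5, a glycosyltransferase that starts mucin-type O-glycans (ENSG00000136542, chr2:157257598-157314211, plus strand), had no count in any RWPE-1 library. In BPH-1 it ran from 30.4 to 46.5 CPM (median 39), at least 2090-fold above the floor of 3 counts over the 5 RWPE-1 libraries (0.0182 CPM). NID2, the basement membrane protein nidogen-2 (ENSG00000087303, chr14:52004803-52069228, minus strand), ran from 80.6 to 98.4 CPM (median 89.5) in BPH-1 and had 2 counts in RWPE-1, a ratio of 7379 (95% exact interval 2042 to 60940). SORBS2, an adaptor at the actin cytoskeleton, ran from 29.2 to 37.1 CPM (median 33.5) and had 2 counts in RWPE-1. All 3 were higher in every BPH-1 library than in any RWPE-1 library. The urea transporter SLC14A1, the amino acid transporter-like SLC7A14 and the atypical cadherin FAT3 had no count in RWPE-1, and in BPH-1 they ran from 3.29 to 33.3 CPM (median 17.1), from 9.73 to 38.6 CPM (median 22) and from 3.34 to 35.6 CPM (median 18.2). Within BPH-1, the mean of the vector controls and that of the C-Raf libraries were 3.52 and 32 CPM for SLC14A1, 35.6 and 9.91 CPM for SLC7A14, and 33.4 and 3.97 CPM for FAT3. The mitochondrial membrane gene MPV17L and the glutathione transferase GSTM1, which has near-identical paralogs, had 3 and 2 counts in RWPE-1 and means of 19.1 ± 3.44 CPM and 11.9 ± 1.09 CPM (SD, n = 6) in BPH-1.

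To show the range of CG content among promoters of such genes, the 250 bases before the RefSeq start of 7 genes with large differences are printed here (GRCh38.p14), 5′ to 3′ on the strand of the gene, with each CG dinucleotide in capitals. CG dinucleotides are the sites of DNA methylation, which was not measured. VIM (chr10:17227991-17228240 on the plus strand), ZNF160 (chr19:53103423-53103672 on the minus strand), EPHA7 (chr6:93419560-93419809 on the minus strand) and GPAT2 (chr2:96036266-96036515 on the minus strand) were on in RWPE-1, and NID2 (chr14:52069060-52069309 on the minus strand), CLDN11 (chr3:170418618-170418867 on the plus strand) and CD74 (chr5:150412911-150413160 on the minus strand) were on in BPH-1. The RefSeq start need not be the start of the gene in the annotation used for the gene coordinates. By the latter the GPAT2 window lies within the gene, most of the NID2 window does, and the windows of ZNF160, CLDN11 and CD74 run into the first bases of the gene.
VIM: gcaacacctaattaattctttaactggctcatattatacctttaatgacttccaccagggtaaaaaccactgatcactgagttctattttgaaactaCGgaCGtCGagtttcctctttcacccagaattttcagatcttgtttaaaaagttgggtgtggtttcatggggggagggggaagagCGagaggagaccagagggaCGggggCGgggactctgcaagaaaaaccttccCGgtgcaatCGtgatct
ZNF160: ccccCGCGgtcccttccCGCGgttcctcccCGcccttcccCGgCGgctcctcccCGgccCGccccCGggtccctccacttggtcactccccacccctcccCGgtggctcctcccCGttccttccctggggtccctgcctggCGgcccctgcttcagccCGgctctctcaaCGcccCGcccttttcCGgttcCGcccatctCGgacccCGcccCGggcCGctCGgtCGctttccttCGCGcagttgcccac
EPHA7: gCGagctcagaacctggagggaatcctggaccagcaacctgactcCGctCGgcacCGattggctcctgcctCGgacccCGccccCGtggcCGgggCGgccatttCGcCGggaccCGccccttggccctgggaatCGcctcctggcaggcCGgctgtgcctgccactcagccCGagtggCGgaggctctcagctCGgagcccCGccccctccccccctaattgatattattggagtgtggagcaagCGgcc
GPAT2: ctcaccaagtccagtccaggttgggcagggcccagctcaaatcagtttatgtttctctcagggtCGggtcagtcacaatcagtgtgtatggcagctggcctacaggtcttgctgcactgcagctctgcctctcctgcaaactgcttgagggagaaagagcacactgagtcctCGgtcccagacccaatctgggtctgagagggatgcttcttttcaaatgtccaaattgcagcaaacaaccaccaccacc
NID2: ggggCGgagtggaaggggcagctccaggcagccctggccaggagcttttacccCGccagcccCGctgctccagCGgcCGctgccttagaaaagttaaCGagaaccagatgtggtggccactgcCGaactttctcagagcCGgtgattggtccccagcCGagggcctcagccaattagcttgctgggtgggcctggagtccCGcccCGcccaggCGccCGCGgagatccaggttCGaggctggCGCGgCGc
CLDN11: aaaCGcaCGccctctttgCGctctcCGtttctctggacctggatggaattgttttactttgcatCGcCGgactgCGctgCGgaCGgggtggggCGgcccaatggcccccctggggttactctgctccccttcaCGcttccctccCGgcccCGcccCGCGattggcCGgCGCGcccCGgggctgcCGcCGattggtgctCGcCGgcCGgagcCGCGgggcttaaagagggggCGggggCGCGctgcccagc
CD74: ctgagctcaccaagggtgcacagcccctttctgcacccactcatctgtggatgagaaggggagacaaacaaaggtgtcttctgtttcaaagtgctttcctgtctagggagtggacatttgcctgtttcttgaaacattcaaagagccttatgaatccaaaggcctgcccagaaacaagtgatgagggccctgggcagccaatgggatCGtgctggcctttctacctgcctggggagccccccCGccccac

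The number of CG dinucleotides in these windows was 8 for VIM, 26 for ZNF160, 19 for EPHA7, 2 for GPAT2, 18 for NID2, 29 for CLDN11 and 2 for CD74. Of all 27305 RefSeq windows, 55.8%, 19.2%, 34.3%, 84.6%, 36.5%, 13.8% and 84.6% hold at least as many. The windows of ZNF468, SPESP1, SORBS2 and SLC14A1, which lie within the genes by the same annotation, held 23, 34, 6 and 2. Over the genes with an entry, the median was 20 for the genes tested (11722 of 14352 matched), 15 for those silent in BPH-1 (63 of 84) and 8 for those silent in RWPE-1 (53 of 75). Fewer than 80% of both silent groups had an entry (75% and 70.7%), so these last medians are void as a comparison.

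Basal markers were expressed in both lines, with KRT14 higher in RWPE-1 and KRT5 overlapping. All 20 genes of a basal list were tested, 11 were higher in RWPE-1 (38.1% of all genes were), 3 were higher in BPH-1 (37.4% of all genes were), and the median log2 difference was 0.49 against 0.00465 over all genes. TP63 was at 298, 220.4, 334, 279 and 268 CPM in RWPE-1, and in BPH-1 from 153 to 216 CPM (median 183), a log2 difference of 0.55 ± 0.12 (adjusted p = 0.00172) that was 0.18 and no longer called after the GC and length trend was removed (adjusted p = 0.205). KRT5, a keratin of the basal layer, was at 7171, 4535, 2553, 1172 and 1180 CPM in RWPE-1, a range that includes the whole BPH-1 range from 2681 to 3063 CPM (median 2907). The difference in KRT5 did not pass the test (0.22 ± 0.40, adjusted p = 0.624), and the vector control library was the highest and C-Raf parental libraries 3 and 4 the lowest. The call on KRT5 depended on the RWPE-1 libraries used. It was higher in RWPE-1 with those of the vector control table only (1.01, adjusted p = 7.66e-05) and without C-Raf parental libraries 3 and 4 (0.71, adjusted p = 0.0179), and lower in RWPE-1 with those of the other table only (−0.90, adjusted p = 0.00859). KRT14, its usual partner, was at 4686, 4042, 2697, 1775 and 1837 CPM in RWPE-1 and in BPH-1 from 164 to 346 CPM (median 254). All RWPE-1 libraries were above all BPH-1 libraries (3.55 ± 0.35, adjusted p = 4.00e-06), with log2 differences of 4.25 and 2.62 when only the 2 RWPE-1 libraries of the vector control table or only the 3 of the other table were used. In the metastasis-derived libraries the direction of KRT14 was opposite (−1.23, adjusted p = 0.0193).

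Stress-associated basal keratins had the same direction. KRT6A was at 1018, 1425, 857, 683 and 662 CPM in RWPE-1, against 97.8 to 515 CPM (median 300.1) in BPH-1 (1.71 ± 0.41, adjusted p = 0.00275). KRT6B was lower in level and ran from 3.91 to 16.8 CPM in RWPE-1 and from 0.318 to 1.95 CPM (median 0.856) in BPH-1 (3.17 ± 0.23). KRT6A and KRT6B are close paralogs, and KRT14 has near-identical copies, so their reads may be split between genes. In the metastasis-derived libraries KRT6A and KRT6B had the opposite sign (−1.27 and −5.81, adjusted p = 0.00181 and 2.49e-06). NGFR, the nerve growth factor receptor of basal cells, went the other way, with 33, 11, 7.87, 6.56 and 5.63 CPM in RWPE-1 and from 119 to 146 CPM (median 127) in BPH-1 (−3.36 ± 0.40, adjusted p = 1.61e-05). Summed over the list, RWPE-1 libraries held 15800 to 22900 CPM and BPH-1 libraries 10300 to 14000 CPM.

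The 2 lines used different simple epithelial keratins. KRT7, a keratin of ducts and glands (ENSG00000135480, chr12:52232520-52252186, plus strand), was at 1923, 1770, 1899, 1633 and 1663 CPM in RWPE-1 and only from 3.44 to 4.48 CPM (median 4.12) in BPH-1, a 439-fold ratio of means. The log2 difference was 8.78 ± 0.11 (adjusted p = 1.09e-11), and KRT7 was the member of its list that was called higher in RWPE-1. Its span overlaps KRT86 on the same strand. KRT8 and KRT19 were the reverse. KRT8 was at 327, 249, 187, 211 and 223 CPM in RWPE-1 against 1027 to 1481 CPM (median 1224) in BPH-1 (−2.23 ± 0.08, adjusted p = 1.93e-09), and KRT19 was at 257, 95.3, 49.3, 25.2 and 25 CPM in RWPE-1 against 834 to 963 CPM (median 884) (−3.35 ± 0.50, adjusted p = 9.69e-05). KRT18, the partner of KRT8, differed less (−0.68 ± 0.16, adjusted p = 0.00237) and overlaps KRT8 on the opposite strand. Within RWPE-1, KRT19 was highest in the vector control library and lowest in C-Raf parental libraries 3 and 4. Per kb of exon, mean levels in RWPE-1 were 434 CPM for KRT7, 34.8 CPM for KRT8 and 38.7 CPM for KRT19, and in BPH-1 0.99, 181 and 382 CPM. The KRT7 difference was also called in the metastasis-derived libraries (11.14, adjusted p = 2.24e-07), whereas KRT8 and KRT18 had the opposite sign there (0.92 and 2.06, adjusted p = 0.0199 and 1.05e-04). KRT7 was the 1 of these 4 keratins called there with the same sign, so KRT19 was not.

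**Figure D2:**
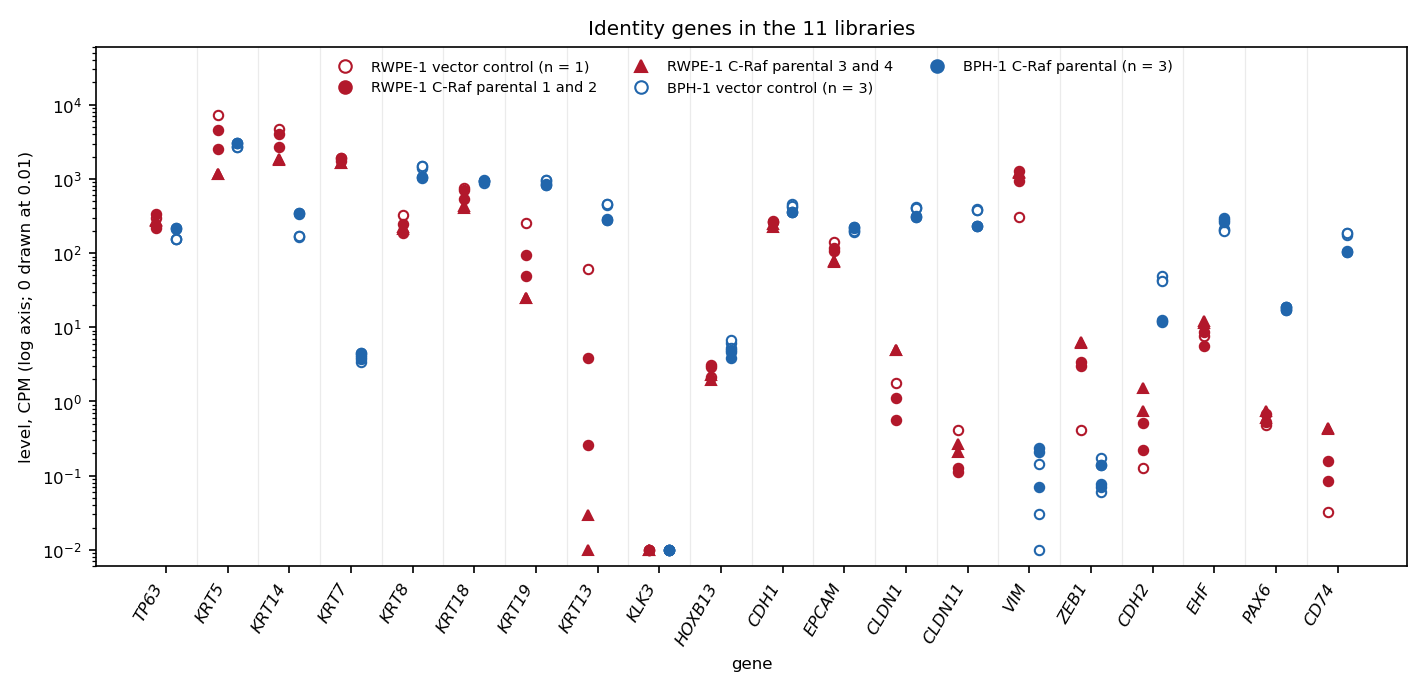
Level of 20 identity genes in each of the 11 libraries, in CPM on a log axis, with RWPE-1 in red and BPH-1 in blue, and 0 drawn at 0.01. Open points are vector control, filled points C-Raf parental libraries, and triangles RWPE-1 C-Raf parental libraries 3 and 4. KRT7 and VIM sit far higher in RWPE-1, CLDN1, CLDN11, EHF, PAX6 and CD74 far higher in BPH-1, and KRT5 overlaps.

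The defining secretory genes of luminal cells were at or near 0 in both lines. KLK3 and KLK2, the androgen-driven kallikreins, had no count in any of the 11 libraries. Of 21 genes of the luminal list, 15 were tested, 3 were higher in RWPE-1 and 11 higher in BPH-1, with a median of −0.95. These are 20% and 73.3%, against 38.1% and 37.4% of all genes. HOXB13, a homeobox factor of the prostate, was at 2.15, 3.13, 2.9, 1.96 and 2.31 CPM in RWPE-1 against 3.92 to 6.82 CPM (median 5.11) (−1.0 ± 0.19, adjusted p = 5.60e-04). FOLH1, which encodes the prostate-specific membrane antigen, went the other way, at 1.51, 3.73, 2.76, 2.32 and 2.76 CPM in RWPE-1 with 1 count in the 6 BPH-1 libraries, a ratio of 470.0 (95% exact interval 83.9 to 18610). TMPRSS2, an androgen-regulated protease, was below 1 CPM in all 11 libraries. Summed over the list, RWPE-1 libraries held 2250 to 2710 CPM and BPH-1 libraries 2710 to 2970 CPM.

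Markers of other epithelial fates were mostly higher in BPH-1 where they differed. Of all genes tested, 12.8% were called higher in BPH-1 beyond 2-fold. In the club and hillock list, 4 of 6 tested members (12 listed) were called, all higher in BPH-1 and beyond 2-fold. After the GC and length trend was removed, 4 were called higher in BPH-1 and 1 higher in RWPE-1. The counts were the same without C-Raf parental libraries 3 and 4. KRT13, the keratin of hillock cells, ran from 283 to 462 CPM (median 365) in BPH-1, and was at 60.7, 3.85, 0.256, 0 and 0.0300 CPM in RWPE-1. Within RWPE-1 it was highest in vector control and near 0 in C-Raf parental libraries 2 to 4. LCN2, an iron-binding antimicrobial protein, was at 2.76, 1.89, 1.99, 18.4 and 17.8 CPM in RWPE-1 against 52.4 to 58.3 CPM (median 55.4) in BPH-1 (−2.87 ± 0.68, adjusted p = 0.00263), and WFDC2 and MMP7 differed by −3.79 ± 0.74 and −7.02 ± 0.45 on the log2 scale. All 6 tested urothelial genes (9 listed) were higher in BPH-1 beyond 2-fold. Among them UPK2, a plaque protein of bladder umbrella cells, ran from 3.13 to 6.5 CPM (median 4.19) in BPH-1 against 0.0568 to 0.481 CPM in RWPE-1, and PPARG, a nuclear receptor of urothelium and fat, ran from 17.7 to 21.4 CPM (median 19.9) against 2.64 to 5.75 CPM. In the neuroendocrine list, 4 of 5 tested members (12 listed) were higher in BPH-1, all beyond 2-fold. The neuronal enolase ENO2 ran from 46.3 to 60.1 CPM (median 52.4) in BPH-1 against 3.69 to 9.05 CPM in RWPE-1, and synaptophysin (SYP), a protein of synaptic vesicles, ran from 2.97 to 4.08 CPM (median 3.38) against 0.178 to 0.321 CPM. Chromogranin A (CHGA) stayed at or below 0.15 CPM in all 11 libraries, and the neuroendocrine factor INSM1 had no count in RWPE-1.

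Squamous differentiation genes went both ways. Of 24 tested (27 listed), 6 were higher in RWPE-1 and 10 in BPH-1 (median −0.97). These are 25% and 41.7%, against 38.1% and 37.4% of all genes. Filaggrin (FLG), which bundles keratin in cornifying cells, ran from 63.5 to 79.5 CPM (median 69.5) in BPH-1 and was at 0.288, 0.158, 0.114, 0.267 and 0.39 CPM in RWPE-1, a 289-fold ratio of means (−8.19 ± 0.19, adjusted p = 1.57e-10). The kallikreins KLK7 and KLK8 and suprabasin (SBSN) were highest in the RWPE-1 vector control library among the RWPE-1 libraries. KLK8 was at 10.3, 1.86, 0.171, 0.0891 and 0.0899 CPM in RWPE-1 and from 0 to 0.202 CPM (median 0.0866) in BPH-1, SBSN was at 5.35, 1.04, 0.0853, 0.0297 and 0.18 CPM in RWPE-1 and from 0 to 0.174 CPM (median 0.0785) in BPH-1, and KLK7 was at 3.37, 0.947, 0.0568, 0.0297 and 0 CPM in RWPE-1 and from 6.85 to 11.8 CPM (median 9.08) in BPH-1. KLK8 and SBSN overlapped between the lines, and KLK7 did not. Without C-Raf parental libraries 3 and 4, 5 members were higher in RWPE-1 and 8 in BPH-1 (median −0.11).

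Among junction genes, claudins differed more than E-cadherin did. E-cadherin (CDH1) was at 261, 261, 269.6, 248 and 228 CPM in RWPE-1, against 359 to 458 CPM (median 393) in BPH-1 (−0.59 ± 0.06, adjusted p = 9.16e-06), and the adhesion molecule EPCAM was at 139.6, 118, 108, 75.2 and 77.7 CPM in RWPE-1 against 193 to 224 CPM (median 212) (−1.0 ± 0.16, adjusted p = 1.44e-04). Both were thus expressed in every library and lower in RWPE-1. The tight junction protein CLDN1 ran from 309.6 to 420.1 CPM (median 358) in BPH-1 and was at 1.79, 0.568, 1.11, 4.9 and 4.94 CPM in RWPE-1, 135-fold apart on average (−7.02 ± 0.55, adjusted p = 6.17e-07). CLDN4 was at 19.2, 6.28, 4.49, 2.91 and 2.82 CPM in RWPE-1 against 129 to 140.1 CPM (median 135) in BPH-1 (−4.24 ± 0.41), and CLDN3 was at most 0.0631 CPM in RWPE-1 against 1.55 to 3.54 CPM (median 2.3). CLDN11, which forms strands in myelin and testis and lies outside the list, was among the largest differences of all, and ran from 233 to 391 CPM (median 309) in BPH-1 and 0.114 to 0.417 CPM in RWPE-1 (−10.17 ± 0.14, adjusted p = 1.09e-11). Of the 20 genes of the junction list, 12 were called higher in BPH-1 (60%, against 37.4% of all genes) and 4 higher in RWPE-1 (20%, against 38.1%). Beyond 2-fold, 7 and 2 were called (12.8% and 11% of all genes were), and the median was −0.62. CLDN1 was also lower in RWPE-1 in the metastasis-derived libraries (−6.60, adjusted p = 1.28e-05).

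Mesenchymal genes went both ways. Of 17 tested (18 listed), 7 (41.2%) were higher in RWPE-1 and 6 (35.3%) in BPH-1, near the 38.1% and 37.4% of all genes. Beyond 2-fold, 6 and 4 were called (11% and 12.8% of all genes were), and the median was 0.79. The repressor ZEB1, which silences epithelial genes, was at 0.417, 3.03, 3.38, 6.41 and 6.05 CPM in RWPE-1 and only from 0.0605 to 0.173 CPM (median 0.108) in BPH-1 (4.38 ± 0.66, adjusted p = 1.10e-04). N-cadherin (CDH2) went the other way, with 0.128, 0.221, 0.512, 0.742 and 1.53 CPM in RWPE-1 and from 11.7 to 48.6 CPM (median 27.4) in BPH-1 (−4.75 ± 0.60, adjusted p = 2.97e-05). The matrix protein SPARC was at 2.95, 0.789, 3.89, 3.09 and 2.4 CPM in RWPE-1 against 90.3 to 193 CPM (median 141) in BPH-1 (−5.40 ± 0.33, adjusted p = 8.96e-08). RWPE-1 thus carried vimentin and ZEB1, and BPH-1 carried N-cadherin and SPARC, each without overlap between the lines. In RWPE-1, VIM and ZEB1 were lowest in the vector control library. Summed over the list, RWPE-1 libraries ran from 959 CPM in vector control to 6980 CPM, whereas BPH-1 libraries ran from 854 to 1380 CPM. Without C-Raf parental libraries 3 and 4 the counts were 7 and 7 and the median 0.14.

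**Figure D3:**
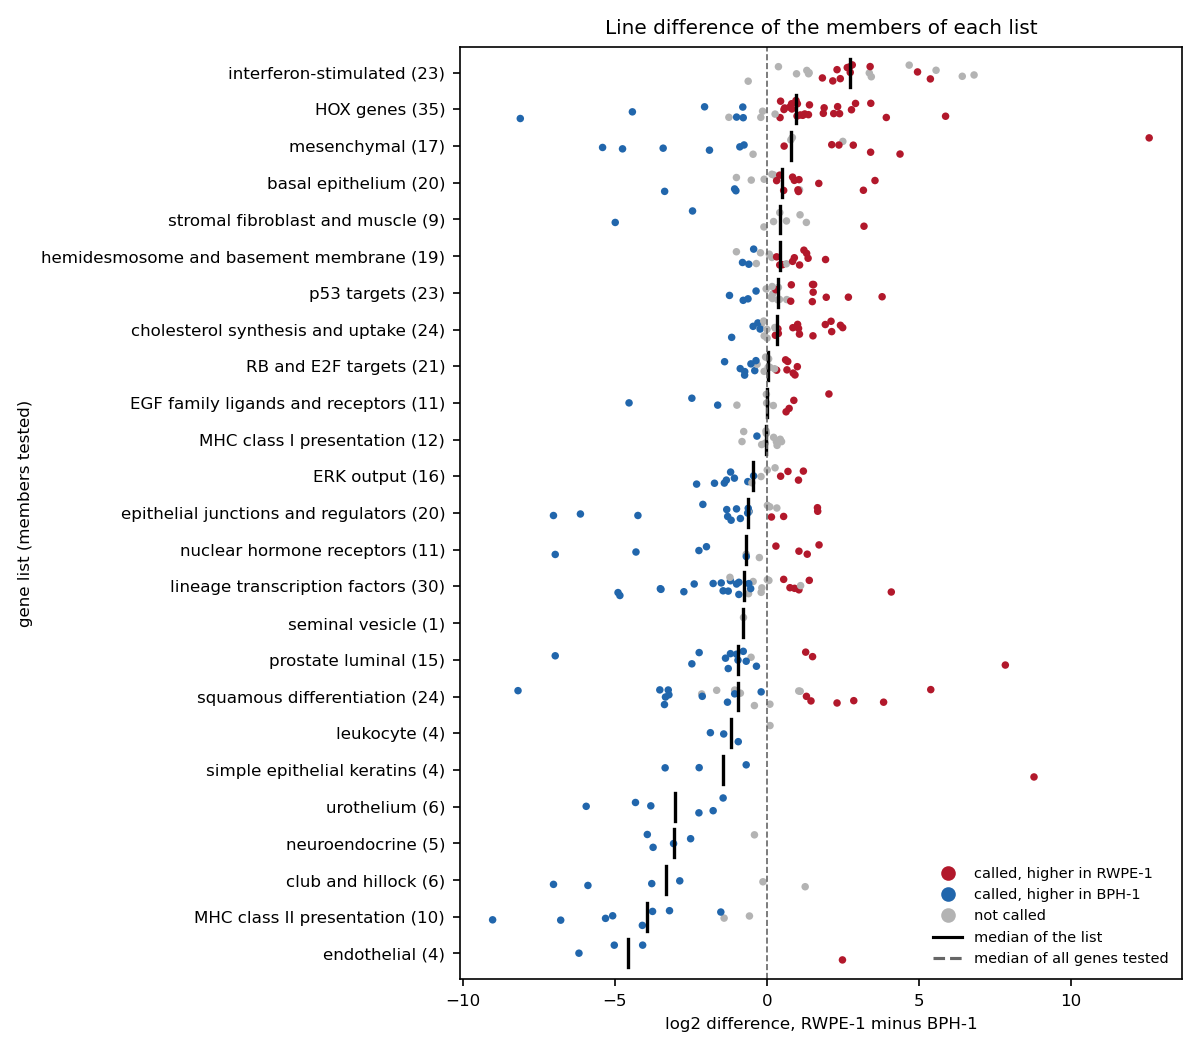
Log2 difference (RWPE-1 minus BPH-1) of every tested member of each gene list, 1 point per gene, ordered by the list's median (black bar), with the number tested in brackets and the median of all genes dashed. Red and blue points passed an adjusted p of 0.05, grey ones did not. The MHC class II list lies to the left, the HOX list mostly to the right, and the interferon list is wide with many members not called.

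The lines differed in their HOX genes. HOX genes encode the position of a cell along the body axis and lie in 4 clusters. Of 35 tested (39 listed), 25 were higher in RWPE-1 and 6 higher in BPH-1, with a median of 0.96. These are 71.4% and 17.1%, against 38.1% and 37.4% of all genes. All 9 tested genes of the HOXC cluster on chromosome 12 were higher in RWPE-1 (log2 differences from 0.58 to 5.88), as were 9 of 11 in HOXA on chromosome 7 and 6 of 8 in HOXD on chromosome 2. In the HOXB cluster on chromosome 17, 5 of 7 were higher in BPH-1 and 1 was higher in RWPE-1. HOXB2 had 2 counts in the 5 RWPE-1 libraries and ran from 3.94 to 4.88 CPM (median 4.4) in BPH-1, and HOXB3 was at 1.31, 0.726, 1.45, 1.22 and 1.2 CPM in RWPE-1 against 19.5 to 29 CPM (median 24.4) in BPH-1 (−4.42 ± 0.18, adjusted p = 4.27e-09). HOXB4, their neighbour, was the reverse, at 1.6, 3.28, 3.98, 4.37 and 4.7 CPM in RWPE-1 and from 0.116 to 0.244 CPM (median 0.202) in BPH-1 (3.93 ± 0.23, adjusted p = 7.53e-08), and overlaps HOXB3 on the same strand. HOXC12 was at 0.705, 0.947, 1.02, 0.802 and 1.05 CPM in RWPE-1, with 2 counts in BPH-1. Of the 31 HOX genes called, 20 were called with the same sign in the metastasis-derived libraries, against 5500 of 10843 over all genes called.

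Transcription factors of epithelial lineages were more often higher in BPH-1. Of 30 tested (32 listed), 16 were higher in BPH-1 (53.3%, against 37.4% of all genes) and 6 in RWPE-1 (20%, against 38.1%). Beyond 2-fold, 8 and 2 were called (12.8% and 11% of all genes were), and the median was −0.76. EHF, an epithelial ETS factor, was at 7.72, 5.56, 8.55, 12.3 and 11.4 CPM in RWPE-1 and ran from 197 to 294 CPM (median 238) in BPH-1 (−4.83 ± 0.20, adjusted p = 4.82e-09). PAX6, known from eye development, was at 0.481, 0.537, 0.682, 0.594 and 0.749 CPM in RWPE-1 against 17.2 to 18.9 CPM (median 18.1) (−4.90 ± 0.12, adjusted p = 2.03e-10), and PAX8, known from kidney and thyroid, was at most 0.779 CPM in RWPE-1 against 3.55 to 4.25 CPM (median 3.86). ERG, the ETS factor that is fused in many prostate cancers, went the other way, at 0.545, 1.86, 1.76, 2.35 and 2.22 CPM in RWPE-1 against 0.0388 to 0.105 CPM (median 0.0696) (4.09 ± 0.35, adjusted p = 1.33e-06). None of the 4 genes overlapped between the lines. EHF and PAX6 were also lower in RWPE-1 in the metastasis-derived libraries (−5.78 and −5.47, adjusted p = 1.62e-06 and 8.19e-08).

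Among 12 nuclear hormone receptors, 11 were tested, 4 were higher in RWPE-1 and 5 higher in BPH-1. These are 36.4% and 45.5%, against 38.1% and 37.4% of all genes. Besides PPARG, the thyroid hormone receptor THRB was at 6.41, 4.61, 2.81, 2.88 and 2.61 CPM in RWPE-1 against 13.5 to 21.9 CPM (median 17.4) in BPH-1 (−1.99 ± 0.15, adjusted p = 5.65e-07). The retinoic acid receptor RARB had 3 counts in RWPE-1 and ran from 0.14 to 1.27 CPM (median 0.727) in BPH-1. These 3 receptors were higher in BPH-1 beyond 2-fold, and PGR had no count in any library.

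MHC class II genes were on in BPH-1 and nearly off in RWPE-1. The class II pathway presents peptides to CD4+ T cells and is active in few cell types. Of 10 genes tested, 8 were higher in BPH-1 (7 beyond 2-fold), 0 were higher in RWPE-1, and the median was −3.93. Of all genes, 37.4% were higher in BPH-1 (12.8% beyond 2-fold). The invariant chain CD74 (ENSG00000019582, chr5:150401637-150412929, minus strand) ran from 104 to 188 CPM (median 142) in BPH-1 and was at 0.0321, 0.158, 0.0853, 0.445 and 0.419 CPM in RWPE-1, a 634-fold ratio of means (−9.02 ± 0.36, adjusted p = 4.38e-09). HLA-DRA ran from 0.892 to 5.17 CPM (median 2.87) in BPH-1 and had 2 counts in RWPE-1, and HLA-DPB1 ran from 9.38 to 15.8 CPM (median 12.3) in BPH-1 and was at 0, 0.0947, 0.341, 0.624 and 0.39 CPM in RWPE-1. The BPH-1 vector control libraries were above its C-Raf parental ones: the list summed to 238 to 245 CPM in the former and 132 to 136 CPM in the latter, against 1.28 to 7.04 CPM in RWPE-1. HLA genes are polymorphic and have close paralogs, so single members are less certain than the list. The leukocyte markers summed to at most 5.38 CPM in any library. Their part in the class II levels was not tested.

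The summed level of interferon-stimulated genes, which encode the antiviral response, did not separate the lines but a pair of RWPE-1 libraries from all others. For 3 of the 23 genes of the list, every library of one line lay above every library of the other, against 61.7% of all genes. Summed over 23 genes, RWPE-1 C-Raf parental libraries 3 and 4 held 7680 and 7570 CPM. The other 3 RWPE-1 libraries held 485 to 788 CPM, the BPH-1 vector control libraries 1380 to 1410 CPM and the BPH-1 C-Raf parental libraries 841 to 858 CPM. IFI44L was at 0.545, 1.04, 3.55, 287 and 296 CPM in RWPE-1, against 0.349 to 5.2 CPM (median 2.43) in BPH-1, and its line difference did not pass the test (6.42 ± 2.76, adjusted p = 0.0541). MX2 was at 0.385, 0.0947, 3.01, 316 and 311 CPM in RWPE-1 (6.81 ± 2.99, adjusted p = 0.0585), and CMPK2 and RSAD2, which overlap on opposite strands, were at 86.1 and 44.9 CPM in library 3, 83.7 and 44.1 CPM in library 4, and at most 0.739 and 1.28 CPM in the other RWPE-1 libraries. Over the list, 11 genes were called higher in RWPE-1 (47.8%, against 38.1% of all genes) and 0 higher in BPH-1 (37.4% of all genes were), with a median of 2.72. Without libraries 3 and 4, 8 were called higher in RWPE-1 and 5 higher in BPH-1 (median 0.34), so that the size of the list's difference rests on this pair.

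MHC class I genes, which present peptides on most cells and respond to interferon, depended on the same pair. With all 11 libraries, 1 of 12 was called, higher in BPH-1, and 0 were called higher in RWPE-1 (median −0.02). Without libraries 3 and 4, 10 of 12 were called higher in BPH-1 and 0 higher in RWPE-1 (median −0.64). HLA-B was at 65.4, 66.8, 139.5, 518 and 504 CPM in RWPE-1, against 135 to 264 CPM (median 196) in BPH-1, and PSMB9, a subunit of the immunoproteasome, was at 8.53, 7.36, 16.1, 39 and 37.2 CPM in RWPE-1 against 29 to 46.5 CPM (median 38.5). In both genes, libraries 3 and 4 lay within or above the BPH-1 range, and the vector control library and C-Raf parental library 1 lay below it.

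**Figure D4:**
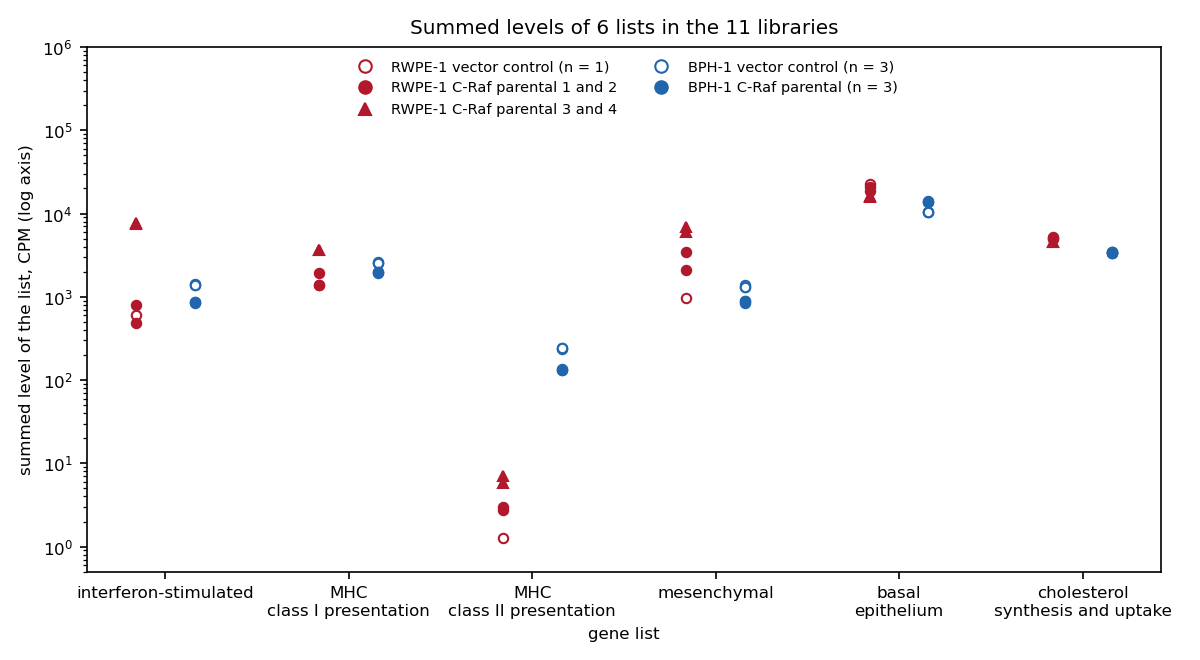
Summed level of 6 gene lists in each of the 11 libraries, in CPM on a log axis, with symbols as for the identity genes. RWPE-1 C-Raf parental libraries 3 and 4 (triangles) stand above the other libraries for the interferon-stimulated list, at 7680 and 7570 CPM, whereas the MHC class II list separates the lines in all libraries.

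Cholesterol synthesis genes were more often higher in RWPE-1. Of 24 tested, 13 were higher in RWPE-1 (54.2%, against 38.1% of all genes) and 4 higher in BPH-1 (16.7%, against 37.4%). Beyond 2-fold, 6 and 0 were called (11% and 12.8% of all genes were), and the median was 0.32. SQLE, which commits squalene to sterols, was at 394, 420.0, 448, 443 and 462 CPM in RWPE-1, against 70.8 to 78.2 CPM (median 76.2) in BPH-1 (2.49 ± 0.05, adjusted p = 5.81e-11). IDI1, an isomerase of the mevalonate pathway, was at 199, 182, 186, 158 and 166 CPM in RWPE-1 against 31.3 to 36.9 CPM (median 34.6) (2.42 ± 0.07). The sterol carrier STARD4 was at 160.4, 175, 173, 218 and 215 CPM in RWPE-1 against 38.3 to 53.6 CPM (median 45.6) (2.11 ± 0.13). SQLE, IDI1 and STARD4 were higher in every RWPE-1 library than in any BPH-1 library. RWPE-1 grew without serum and BPH-1 with it, so line and medium cannot be told apart here. Summed over the list, RWPE-1 libraries held 4600 to 5160 CPM and BPH-1 libraries 3360 to 3480 CPM.

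Ligands of the EGF family differed, while the list as a whole did not lean to either line. Of 11 tested (12 listed), 4 were higher in RWPE-1 and 3 in BPH-1 (median −0.01). These are 36.4% and 27.3%, against 38.1% and 37.4% of all genes. NRG1, a ligand of receptors of the EGF receptor family, was at 22.4, 18.4, 17.2, 8.08 and 6.68 CPM in RWPE-1 against 336 to 364 CPM (median 347) in BPH-1 (−4.53 ± 0.31, adjusted p = 2.32e-07). HBEGF was at 5.99, 12.7, 28.6, 42.1 and 40.5 CPM in RWPE-1 against 49 to 152 CPM (median 98.6) (−2.47 ± 0.30, adjusted p = 1.84e-05). EREG, another ligand of the EGF receptor, went the other way, at 80.2, 178, 177, 168 and 166 CPM in RWPE-1 against 20.8 to 40.8 CPM (median 31.5) (2.04 ± 0.06, adjusted p = 5.10e-10). Every library of one line lay above every library of the other for NRG1, HBEGF and EREG. RWPE-1 received EGF in its medium, and EGF itself was below 1 CPM in all libraries.

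Of 16 genes that report ERK activity, 8 were higher in BPH-1 (3 beyond 2-fold) and 4 higher in RWPE-1, against 37.4% and 38.1% of all genes, with a median of −0.47. After the GC and length trend was removed, 7 were higher in BPH-1 and 5 in RWPE-1, with a median of −0.04. An interaction of line and stage was called for 9 of the 16, against 9.25% of all genes, and rests on the 1 vector control library of RWPE-1. Cyclin D1 (CCND1) was at 297, 277, 284, 298 and 299.6 CPM in RWPE-1 against 885 to 1009 CPM (median 948) in BPH-1 (−1.72 ± 0.06, adjusted p = 1.04e-09). DUSP4, a phosphatase that ERK induces, was at 26, 44, 40.6, 42.7 and 40.1 CPM in RWPE-1 against 79.9 to 259.9 CPM (median 169) (−2.31 ± 0.15, adjusted p = 1.46e-07). Within BPH-1, mean DUSP4 was 81 CPM in vector control and 258 CPM in C-Raf parental libraries. FOSL1, an ERK-dependent AP-1 subunit, overlapped between the lines, at 70.0, 199, 238, 208 and 203 CPM in RWPE-1 against 231 to 482 CPM (median 352) in BPH-1, and still passed the test (−1.33 ± 0.11, adjusted p = 7.27e-07).

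Hemidesmosome and basement membrane genes leaned to RWPE-1, with 10 of 19 higher there, 3 higher in BPH-1 and a median of 0.42. These are 52.6% and 15.8%, against 38.1% and 37.4% of all genes. Without C-Raf parental libraries 3 and 4, the counts were 10 and 6 and the median 0.40. After the GC and length trend was removed, they were 11 and 0. Of the 13 members called, 4 were called with the same sign in the metastasis-derived libraries. Plectin (PLEC), which links keratin to hemidesmosomes, was at 3273, 4952, 4436, 5238 and 4384 CPM in RWPE-1 against 922 to 1236 CPM (median 1104) (1.93 ± 0.09, adjusted p = 1.68e-08). The collagen chain COL4A5 was at 79.3, 78.9, 90.0, 112 and 101 CPM in RWPE-1 against 33.2 to 39.2 CPM (median 35.7) (1.35 ± 0.10).

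Genes downstream of p53 and RB, the 2 proteins that both immortalizing viruses inactivate, were compared next. Of 23 p53 targets, 10 were higher in RWPE-1 and 4 in BPH-1, 5 and 1 of them beyond 2-fold (median 0.38). At any size these are 43.5% and 17.4%, against 38.1% and 37.4% of all genes. Without C-Raf parental libraries 3 and 4, the counts were 9 and 6 and the median 0.07. TP53INP1 was at 12.1, 9.85, 18.9, 34.1 and 36 CPM in RWPE-1 against 2.42 to 4.9 CPM (median 3.47) in BPH-1 (2.68 ± 0.42, adjusted p = 1.51e-04), and ZMAT3 was at 59.1, 48.7, 69.8, 89.2 and 74.2 CPM in RWPE-1 against 22.4 to 23.6 CPM (median 23.1) (1.54 ± 0.14, adjusted p = 1.58e-06). CDKN1A, the cell cycle inhibitor p21, was at 51.3, 72.7, 161, 368 and 323 CPM in RWPE-1 and spanned the BPH-1 range from 104 to 127 CPM (median 115) (0.41 ± 0.48, adjusted p = 0.45). The call on CDKN1A depended on the RWPE-1 libraries used. Its log2 difference was −0.90 with those of the vector control table only and 1.21 with those of the other table only. Both were called, the latter with an adjusted p = 0.000965 in the same test. CDKN2A, which encodes p16 and is high in cells without RB function, was at 276, 279, 227, 201 and 196 CPM in RWPE-1 against 178 to 202 CPM (median 189) (0.32 ± 0.10, adjusted p = 0.0157). The RWPE-1 values of CDKN2A ran into the top of the BPH-1 range, and without the vector control library the call was lost (0.20 on the log2 scale, adjusted p = 0.109). Of 21 RB and E2F targets, 7 were higher in RWPE-1 and 7 in BPH-1, shares near those of all genes (median 0.04). This even split depended on C-Raf parental libraries 3 and 4, without which the counts were 11 and 6 and the median 0.10. Summed over the list, this pair held 3500 and 3270 CPM. The other RWPE-1 libraries held 4580 to 5410 CPM and the BPH-1 libraries 3840 to 4060 CPM. With all libraries, cyclin E1 (CCNE1) was the 1 target called beyond 2-fold, at 8.11, 8.4, 13.2, 13.2 and 13.7 CPM in RWPE-1 against 25.6 to 29.9 CPM (median 28.1).

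Markers of non-epithelial cells were low. In all 11 libraries the leukocyte list (10 genes) summed to 1.52 to 5.38 CPM, the endothelial list (7 genes) to 0.0947 to 4.1 CPM, the seminal vesicle list (5 genes) to at most 0.551 CPM and the fibroblast and muscle list (13 genes) to 11.9 to 43.4 CPM. The leukocyte marker PTPRC (CD45) was at most 0.722 CPM, and the endothelial marker PECAM1 at most 0.0631 CPM. The fibroblast collagen COL1A1 overlapped between the lines, at 8.24, 9.76, 10.7, 21.1 and 22.7 CPM in RWPE-1 and from 11.8 to 28.1 CPM (median 18.8) in BPH-1. In the endothelial list 3 of 4 tested members were higher in BPH-1 and 1 in RWPE-1, and in the leukocyte list 3 of 4 were higher in BPH-1. Of all genes, 37.4% were higher in BPH-1. Of 18 cancer-testis genes, 13 had no count in any library and none was tested.

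The remaining genes with the largest differences belonged to no list. Higher in RWPE-1 were NLRP2, a NOD-like receptor, at 78.2, 80.1, 69.8, 61.1 and 63.8 CPM in RWPE-1 and from 0 to 0.0703 CPM (median 0) in BPH-1, and PRKCDBP (also called CAVIN3), a coat protein of caveolae, at 8.14, 14.1, 16.3, 17.6 and 18.3 CPM in RWPE-1 without a count in BPH-1. NLRP2 overlaps NLRP7 on the opposite strand. Higher in BPH-1 were CAMKV, a kinase-like synaptic protein, which ran from 31.3 to 98.1 CPM (median 64.9) there and from 0 to 0.114 CPM in RWPE-1, and G0S2, an inhibitor of lipolysis, which ran from 46.9 to 146 CPM (median 96.8) and at most 0.327 CPM in RWPE-1. The cytokine TNFSF18 (GITR ligand) ran from 28 to 76.6 CPM (median 50.8) in BPH-1 and at most 0.12 CPM in RWPE-1, and the secreted protease HTRA3 ran from 7.02 to 15.3 CPM (median 11.3) with 1 count in RWPE-1. None of these 6 genes overlapped between the lines, and all differed with the same sign in the metastasis-derived libraries, with adjusted p values from 1.17e-07 to 0.00177.

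The line difference also followed chromosomes. The median log2 difference was 0.73 over 525 genes tested on chromosome 4, 0.71 over 658 on chromosome 5, 0.66 over 553 on chromosome 10, 0.65 over 241 on chromosome 13, 0.61 over 750 on chromosome 6 and 0.60 over 934 on chromosome 2. At the other end, among nuclear chromosomes, it was −0.75 over 335 genes on chromosome 22, where 25 genes were called higher in RWPE-1 and 258 higher in BPH-1. Chromosomes 11 and 16 followed with −0.48 each, X with −0.42 and 3 with −0.40. Part of this went with GC content: after the GC and length trend was removed, the values were 0.41, 0.55, 0.47, 0.29, 0.49 and 0.42 for chromosomes 4, 5, 10, 13, 6 and 2, and −0.48, −0.39, −0.26, −0.46 and −0.52 for chromosomes 22, 11, 16, X and 3. In the metastasis-derived libraries, the same chromosomes gave 0.43, 0.60, 0.52, 0.35, 0.44 and 0.56, and −0.46, −0.40, −0.33, −0.33 and −0.49. Each of these 11 chromosomes thus kept its sign in both. Chromosome 19 did not, with −0.27, 0.05 after the trend was removed and −0.14.

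**Figure D5:**
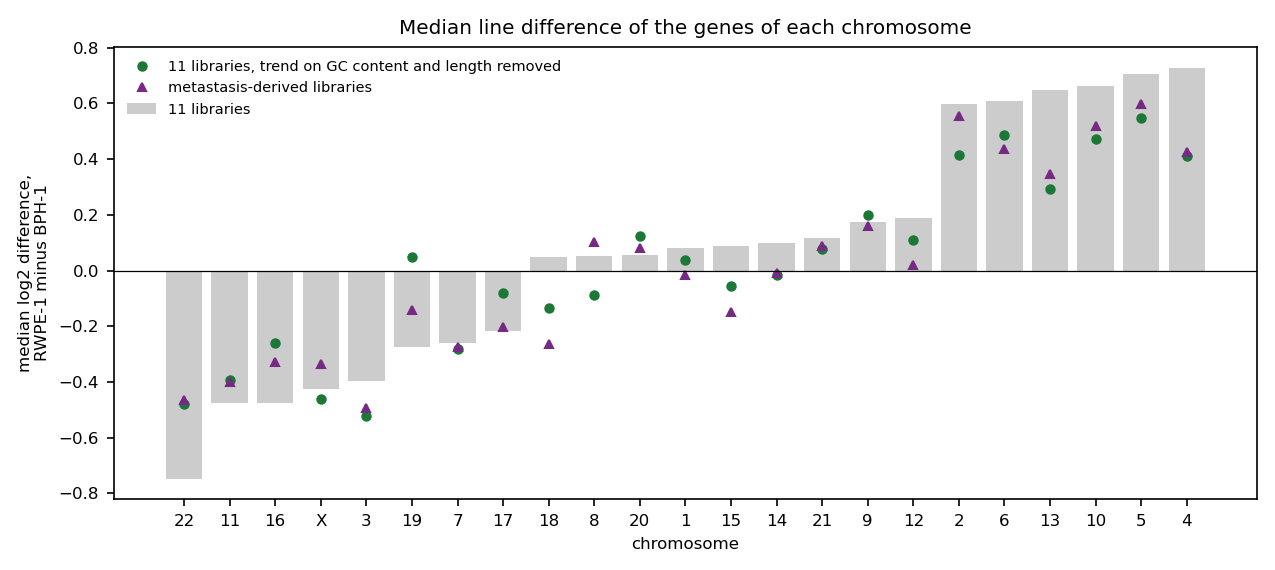
Median log2 difference (RWPE-1 minus BPH-1) of the protein-coding genes tested on each chromosome, ordered from lowest to highest. Bars are the 11 libraries, circles the same after the trend on GC content and length was removed, and triangles the metastasis-derived libraries. Chromosomes 2, 4, 5, 6, 9, 10, 12, 13, 20 and 21 lie above 0 and chromosomes 3, 7, 11, 16, 17, 22 and X below 0 by all 3 measures.

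Within chromosomes the difference came in blocks. Genes with at least 5 CPM in both lines were grouped in windows of 10 Mb, and 193 windows held 20 genes or more. The quartiles of the window medians were −0.231 and 0.519. The highest was the window from 10 to 20 Mb on chromosome 10, with a median of 1.64 and 20 of 21 genes called higher in RWPE-1. On chromosome 5, the windows from 50 to 80 Mb had medians of 1.26, 1.51 and 1.31, with 19 of 21, 32 of 34 and 35 of 38 genes called higher in RWPE-1, whereas the window from 0 to 10 Mb on the same chromosome had a median of −0.80 and 18 of 20 genes called higher in BPH-1. On chromosome 7, the windows from 130 to 160 Mb had medians of −0.70, −0.92 and −0.97. After the GC and length trend was removed, the windows on chromosome 7 stayed at −0.99, −0.90 and −1.0, and that on chromosome 10 was at 1.27. Those on chromosome 5 became smaller, at 0.97, 0.97 and 0.79 from 50 to 80 Mb and −0.61 from 0 to 10 Mb. In the metastasis-derived libraries, the windows on chromosome 7 were at −0.82, −1.11 and −0.78, that on chromosome 10 at 1.5, and those on chromosome 5 at 1.45, 1.63 and 1.28 from 50 to 80 Mb and −0.31 from 0 to 10 Mb. Windows that share a region are not independent, and these were picked out after their values had been seen.

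The line difference depended on stage for a minority of genes. An interaction of line and stage was called for 1328 of 14352 genes (9.25%), and it rests on the 1 vector control library of RWPE-1. Without RWPE-1 C-Raf parental library 1, the count was 5801, and without any 1 of the 6 BPH-1 libraries it was 551 to 603. Among the genes named here it was called for the claudin CLDN4 (adjusted p = 0.00814), for NGFR (0.00244), for DUSP4 (2.76e-04) and for KRT6A (0.00625) among others. It was not called for VIM (0.728), KRT7 (0.448), KRT8 (0.66), CLDN1 (0.471) or EHF (0.807).

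The same comparison was made in 7 RWPE-1 and 3 BPH-1 metastasis-derived libraries, which share no library with the 11. Between the lines, they differ in site and in the share of protein-coding counts given above. There 8947 of 14067 genes (63.6%) were called. Of 13724 genes tested in both, 9387 (68.4%) had the same sign. Of 3097 genes that had been called beyond 2-fold and were tested in both, 2728 (88.1%) had the same sign, 2297 of them called (74.2%), and 131 were called with the opposite sign. The genes beyond 2-fold in both with the same sign numbered 1662, which is 48.5% of those called before metastasis and 42.8% of those called in the metastasis-derived libraries. Of the genes called in the 11 libraries, 5500 of 10843 were called there with the same sign. Among the list members, this held for 3 of 8 MHC class II genes, 16 of 22 lineage transcription factors and 4 of 14 basal genes. Called genes that were not tested there count as not called, and 8 of the 10 class II genes were tested.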

How the data were processed

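The authors deposited RSEM expected counts per gene symbol, not scaled between libraries, in 4 tables. The labels name cutadapt, STAR, RSEM and hg38, and the annotation release is not given in the sources used here. Expected counts were rounded to whole numbers and restricted to 19237 symbols that GENCODE 29 lists as protein-coding. All 24 columns were matched to samples by title, and groups were taken from the labels. Genes were kept by filterByExpr, scaled by TMM and tested with edgeR 4.0.16 (R 4.3.3), with line and stage as terms. Calls used a Benjamini-Hochberg adjusted p of 0.05, and differences beyond 2-fold used glmTreat. The study adjusted its counts for cell line before testing, a step that removes the difference studied here, so it was not applied. The test was run on simulated counts with 200 changed genes and the same spread in both lines. In the data 75.6% of genes were called and the lines differed in spread (2.43% and 24.4%). The simulation therefore cannot show how the test behaves under those conditions.

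The genes named were the 12 largest differences per direction (at least 10 CPM, no overlap), the 8 silent genes of highest level per direction, and the 4 members of each list with the largest difference plus set markers. Members and lists were chosen with earlier results of these data known. Per line, a floor of 3 counts over its libraries and exact 95% intervals cover counting error only. The GC and length trend was fitted per library with natural splines of 5 degrees of freedom. Metastasis-derived libraries needed 1000000 protein-coding counts. Alternatives included RLE, 2 other filters, all genes, DESeq2 1.42.0, limma 3.58.1 (voom), other library sets, a replicate block and each library left out. Same-numbered libraries did not deviate together (r from −0.0454 to 0.0154), so numbers were not taken to pair libraries. The targeted gene and a few other genes are not reported here. RWPE-1 libraries came from 2 tables, and values within each table are given in part.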

Additional observations from a re-analysis of the deposited data

Results flagged for a closer look

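Among 99 tested genes named above, the effect of stage on the line difference was called for 12 (edgeR's quasi-likelihood test of the interaction). The adjusted p values were 0.000276 for DUSP4, 0.00244 for NGFR, 0.00625 for KRT6A, 0.00814 for CLDN4, 0.0199 for FOSL1, 0.0278 for CDH2, 0.0278 for KRT14, 0.0294 for KRT13, 0.0307 for HLA-DPB1, 0.0325 for STARD4, 0.0328 for ZEB1 and 0.0384 for COL1A1. The share of all genes called was 9.25%, and each of these rests on 1 RWPE-1 vector control library.

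In 19 cases, 1 of the 4 RWPE-1 C-Raf parental libraries lay far from the other 3, by the ratio of its gap to the whole range (Dixon's test at the 95% level, which chance passes in about 1 of 20 groups). Library 1 stood apart for KLK8 (0.954), KLK7 (0.940), KRT13 (0.934), CCNE1 (0.905), THRB (0.863), EPHA7 (0.855), ZNF347 (0.855), SBSN (0.852), VIM (0.836) and UPK2 (0.831). This library shares its table with the vector control library. For genes with at most 3 counts over the RWPE-1 libraries, the ratio was 1.000 for GSTM1 and HTRA3 in library 2, 1.000 for HLA-DRA, HOXB2, MMP7, NID2 and RARB in library 3, 1.000 for SORBS2 in library 4, and 0.900 for MPV17L in library 4, which is a matter of single reads.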

How the results depend on the processing

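Across the alternatives the number of genes called between the lines ran from 9033 to 13050 and stayed within 1.5 times 10843. The number beyond 2-fold moved to 1920 when at least 10 counts were asked of every library, which drops genes silent in 1 line. Leaving out each library gave 10258 to 10934 genes called and 3160 to 3548 beyond 2-fold. The stage interaction ran from 551 to 5801, and the metastasis-derived comparison gave 6258 with all 6 BPH-1 libraries. With a replicate block 10293 genes were called and 3263 beyond 2-fold. Under the block CDKN2A, EGF, KRT6A and SBSN lost their call, and CDKN1A, CMPK2, IFI44L and MX2 gained one. The numbers do not pair the libraries.

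Most values of named genes kept their sign and call. Reversed log2 differences were as follows, and the cause was not tested. With the RWPE-1 table of the vector control only, they were −0.90 for CDKN1A, −1.30 for CMPK2, −1.48 for HLA-B, −1.01 for IFI44L, −2.81 for MX2 and −0.26 for PTPRC. Those of CDKN1A, CMPK2, HLA-B and MX2 were called there. With the other RWPE-1 table only, they were 0.61 for COL1A1 (called, adjusted p = 0.0302), −0.90 for KRT5 (called, adjusted p = 0.00859) and 0.01 for PSMB9. With all 24 libraries, they were 0.76 for KRT18, −0.24 for KRT5, −2.37 for KRT6B, 0.32 for PSMB9, −0.18 for PTPRC and −6.00 for SBSN. With all 24 libraries calls were also lost for CCND1 (−0.56, adjusted p = 0.139), EPCAM (−0.21, 0.613), FOSL1 (−0.33, 0.385), HOXB4 (0.85, 0.519), HOXB13 (−0.49, 0.0679), KLK8 (0.17, 0.92), KRT14 (1.35, 0.0629), KRT6A (0.37, 0.437), KRT8 (−0.07, 0.935) and TP63 (0.35, 0.327). With C-Raf parental libraries only, reversed values were 0.44 for COL1A1 and −0.37 for KRT5, and under the block 0.18 and −0.67. With limma voom, they were −0.08 for IFI44L, −0.80 for MX2 and −0.17 for KRT5. Without a stage term PTPRC was at −1.05. When single libraries were left out, COL1A1 ran from −0.31 to 0.45 (highest without the RWPE-1 vector control), KRT5 from −0.36 (without the vector control) to 0.42, and PTPRC from −0.16 to 0.51.

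Of the settings added after seeing the data, 21 libraries without the 3 of low depth gave 0.41 for KRT18, −0.47 for KRT5, −2.21 for KRT6B, 0.13 for PSMB9, −0.17 for PTPRC and −5.58 for SBSN. Without the RWPE-1 pair 3 and 4, CDKN1A was at −0.42, HLA-B at −0.93 (called, adjusted p = 0.0264) and PTPRC at −0.39. With the GC and length trend removed, COL1A1 was at 0.30 and PTPRC at −0.47. RSAD2 lost its call without C-Raf parental library 4 or any 1 BPH-1 C-Raf parental library.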
